A study of Mus musculus with 9 samples.

Results

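The machinery of DNA replication was followed in mouse embryonic fibroblasts (MEFs) through 49 genes, chosen by name from the 15184 genes for which a value was deposited. The 49 genes cover origin licensing, origin firing, the replication fork and the supply of nucleotides, and all 49 were listed. PolyA+ RNA was measured by RNA-Seq in 9 libraries, 3 from MEFs labelled as empty vector and 6 from MEFs whose genotype is labelled Hnrnpk_SAM. The latter came from the lines SAM1 and SAM2, with 3 libraries each. SAM, the synergistic activator mediator system, recruits transcriptional activators to the start of a chosen gene, here *Hnrnpk*, by means of a guide RNA bound to a Cas9 that does not cut. According to the methods, wild-type MEFs received the helper plasmid lentiMPHv2 and the plasmid lentiSAMv2 with a guide, and were selected with blasticidin and hygromycin. The methods describe lentiSAMv2 with a nontargeting guide as the control, the guides were used separately, and the guide of each line is not given in the sources used here. The list of materials gives the same sequence for sgHnrnpk2 and for the nontargeting guide, so what the control libraries carry, and how it differs from the guide of each line, could not be settled from the sources used here. The sources also do not say whether the 3 libraries of a group are separate cultures, so the tests measure the spread between libraries, which may be technical. Where the 6 libraries of both lines are pooled, this spread also holds the difference between the lines.

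Replication is prepared before S phase, when the origin recognition complex (ORC), *Cdc6* and *Cdt1* load the MCM helicase onto DNA, and geminin, the product of *Gmnn*, holds *Cdt1* in check so that no origin is licensed again in the same cycle. In S phase the kinase of *Cdc7* and *Dbf4*, together with *Cdc45*, the GINS complex and *Mcm10*, turns the loaded helicase into an active fork. The polymerases alpha, delta and epsilon, the clamp PCNA with its loader RFC, the single-strand binding complex RPA, the flap nuclease *Fen1* and the ligase *Lig1* then copy the strands. Ribonucleotide reductase, thymidylate synthase, thymidine kinase and dUTPase keep them supplied with deoxynucleotides. Many of these genes are transcribed periodically under E2F factors in cycling fibroblasts, so their mRNA is a common readout of how much of a culture is in or near S phase.

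The deposited values are normalized counts, that is read counts divided by a size factor for each library. Reads on the listed genes, recovered from the steps of these values, numbered from 41759636 to 49026626 per library. *Hnrnpk* itself gave 25058, 26098 and 26164 normalized counts in empty vector MEFs, 24102, 24044 and 23619 in SAM1 MEFs, and 26608, 26859 and 26221 in SAM2 MEFs. The libraries of line SAM1 lay below all empty vector libraries, at -0.11 on the log2 scale (adjusted p = 0.00252 from limma). Those of line SAM2 lay above them, at 0.04 without passing the threshold (adjusted p = 0.159 from limma). The lines differed by 0.15 (adjusted p = 0.000288 from limma), and with the 6 libraries pooled the difference was -0.03 (adjusted p = 0.642 from limma). The target was thus not higher past the threshold in either line, lower in line SAM1, and directions below refer to the labels. All 11 fibroblast markers were listed, with a summed level of 1036178 to 1127987 in empty vector MEFs, 877974 to 934729 in line SAM1 and 1159697 to 1198282 in line SAM2. Taken one by one, 3 of the 11 were called higher and 8 lower in line SAM1 (median log2 fold change -0.47), and 3 higher and 4 lower in line SAM2 (median 0.013). The listed markers of other cell types had lower summed levels than the fibroblast markers in every group. Several of these sums were nevertheless higher in a line than in empty vector MEFs. The 5 listed of 6 endothelial markers summed to 428 to 468 in empty vector MEFs, 4922 to 5343 in line SAM1 and 907 to 977 in line SAM2, the 3 listed of 7 epithelial markers to 388 to 429, 3733 to 3884 and 243 to 275, and the 3 listed of 6 neural markers to 3130 to 3366, 9351 to 9494 and 8769 to 8991. The 3 listed of 8 immune markers summed to 607 to 728, 944 to 977 and 695 to 739, and the 1 listed of 5 skeletal muscle markers, *Des*, to 44.4 to 83.0, 90.8 to 111 and 223 to 245. *Epcam*, *Ptprc*, *Cd3e*, *Sox10* and *Myod1* were not analysed here. The part of these differences in the results below was not tested.

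Most replication genes were higher in both lines than in empty vector MEFs. With the 6 libraries labelled Hnrnpk_SAM against the 3 empty vector libraries, 35 of the 49 genes passed the threshold as higher and 3 as lower (*Orc2*, *Orc3* and *Rfc5*), while 11 did not pass it, by limma on log2(normalized count + 1) at an adjusted p-value of 0.05. Over all 15184 genes, 26.8% were called higher and 27% lower. The median log2 fold change of the 49 genes was 0.44, against 0.0087 for all listed genes. In 34 of them all 6 libraries lay above all 3 empty vector libraries, and in 3 all 6 lay below, where 25.9% and 27.2% of all genes did so. The normalized counts of the 49 genes summed to 115772 to 118930 in empty vector MEFs, 159975 to 162711 in line SAM1 and 147528 to 148223 in line SAM2. When libraries were instead scaled to equal sums, the median of all genes moved to 0.13, the share of higher among all called genes from 49.8% to 65.3%, and the 49 genes to 40 higher and 2 lower, with a median of 0.57. Fewer cells of a type and less RNA per cell cannot be told apart in bulk RNA, and likewise a larger share of cells in S phase and more mRNA in each such cell.

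**Figure D1:**
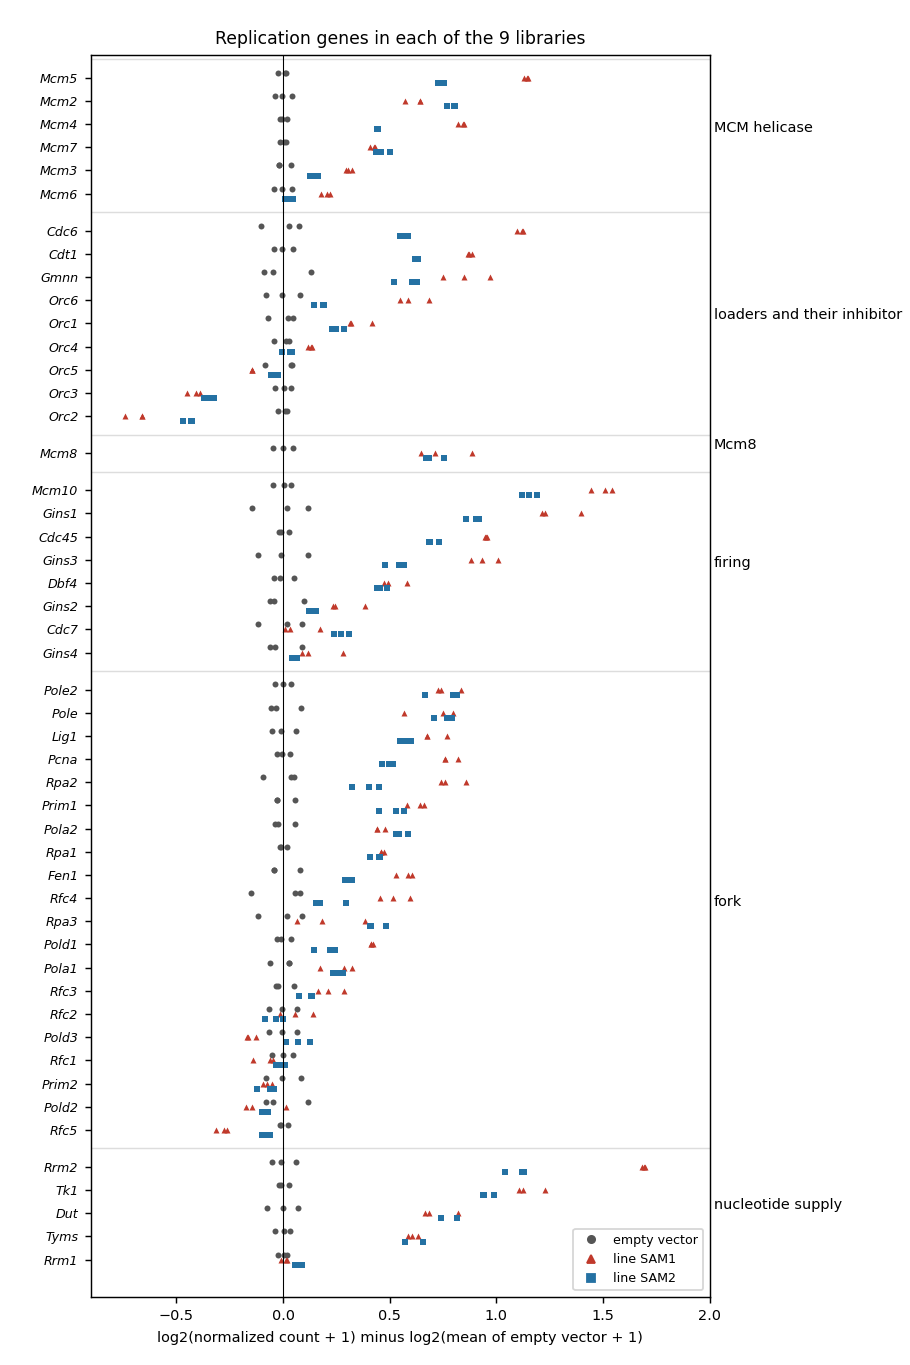
Each row is a replication gene, grouped by role and ordered by its pooled fold change, and the x axis gives log2(normalized count + 1) in each of the 9 libraries relative to the mean of the 3 empty vector libraries (grey circles, line SAM1 red triangles, line SAM2 blue squares). *Rrm2* and *Mcm10* lie farthest to the right, *Orc2* and *Orc3* lie left of 0 in all 6 libraries, and line SAM1 lies to the right of line SAM2 in most genes that rose.

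Of the 6 subunits of the MCM helicase, the motor that unwinds DNA ahead of the fork, 5 rose and *Mcm6* did not pass the threshold, with a median log2 fold change of 0.54. The largest rise was that of *Mcm5* (chr8:75836140-75856231 of GRCm39), with 3708, 3809 and 3804 normalized counts in empty vector MEFs, 8264, 8328 and 8356 in SAM1 MEFs, and 6262, 6374 and 6250.1 in SAM2 MEFs. The 6 libraries of the lines lay well above the 3 empty vector libraries, and line SAM1 above line SAM2, without overlap (log2 fold change 0.94, SE 0.117, adjusted p = 0.000117 from limma). *Mcm2* gave 5648, 5477 and 5339 normalized counts in empty vector MEFs, 8552, 8148 and 8557 in SAM1 MEFs, and 9551, 9347 and 9585 in SAM2 MEFs. Here too both lines lay above empty vector MEFs, but line SAM2 was the higher of them (log2 fold change 0.70, SE 0.0594, adjusted p = 9.39e-06 from limma). *Mcm4* gave 7030.1, 6933 and 6882 normalized counts in empty vector MEFs, 12254, 12452 and 12503 in SAM1 MEFs, and 9430.2, 9415 and 9466 in SAM2 MEFs, with all libraries of line SAM1 above those of line SAM2 and these above empty vector MEFs (log2 fold change 0.64, SE 0.115, adjusted p = 0.00118 from limma). *Mcm7* gave 3018, 3058 and 3076 normalized counts in empty vector MEFs, 4117, 4093 and 4043 in SAM1 MEFs, and 4131, 4193 and 4323 in SAM2 MEFs, so that the lines lay close to each other and above empty vector MEFs (log2 fold change 0.44, SE 0.033, adjusted p = 4.28e-06 from limma). *Mcm3* rose less (log2 fold change 0.23, SE 0.0545, adjusted p = 0.00614 from limma). *Mcm6* differed from empty vector MEFs by 0.12 (95% interval from -0.01 to 0.25, adjusted p = 0.119 from limma), and its line SAM2 libraries overlapped them.

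MCM subunits act as a ring with the subunits in equal number, which makes their levels per length of transcript a natural comparison. In empty vector MEFs the level, in normalized counts per kb of the canonical transcript, was lowest for *Mcm5* (820.0), followed by *Mcm7* (1029.9), *Mcm3* (1166), *Mcm4* (1352) and *Mcm2* (1628), and highest for *Mcm6* (1951), with no overlap between neighbours in this order. *Mcm5*, the lowest subunit in empty vector MEFs, reached 1807 per kb in line SAM1 and 1368 in line SAM2. *Mcm6*, the highest subunit in empty vector MEFs, had 2243 and 1992 per kb in the lines, below *Mcm2* with 2497 and 2816. *Mcm8*, an MCM paralog outside the ring with a role in recombination repair, gave 492, 476 and 461 normalized counts in empty vector MEFs, 879.9, 782 and 746 in SAM1 MEFs, and 766, 758 and 804 in SAM2 MEFs. The lines overlapped each other and stayed above empty vector MEFs in every library (log2 fold change 0.73, SE 0.0618, adjusted p = 9.94e-06 from limma).

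**Figure D2:**
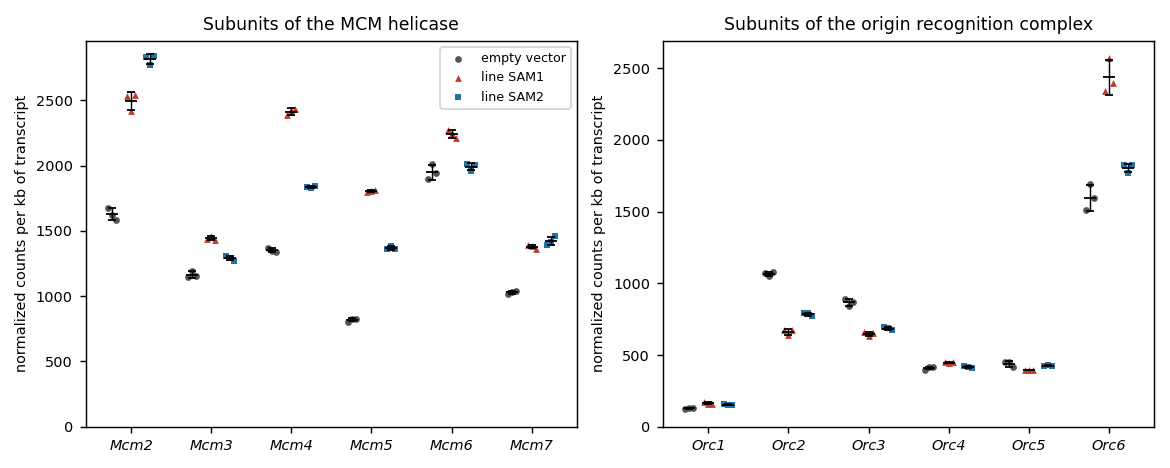
Points are single libraries in normalized counts per kb of canonical transcript, for the 6 MCM subunits at left and the 6 ORC subunits at right, and black bars give the mean and SD of 3 libraries of empty vector MEFs (grey), line SAM1 (red) and line SAM2 (blue). *Mcm5* is the lowest MCM subunit in empty vector MEFs, at 820.0 per kb, and among ORC subunits *Orc6* is higher and *Orc2* and *Orc3* are lower in both lines.

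The loaders of the helicase and their inhibitor did not move as a block. Of these 9 genes 5 rose, 2 fell and 2 did not pass the threshold, with a median of 0.30. *Cdc6*, the ATPase that joins ORC to load MCM, gave 536, 519 and 474 normalized counts in empty vector MEFs, 1089.6, 1112 and 1107 in SAM1 MEFs, and 765, 751 and 745 in SAM2 MEFs. Line SAM1 lay far above the other libraries, and line SAM2 between it and empty vector MEFs (log2 fold change 0.84, SE 0.163, adjusted p = 0.00186 from limma). *Cdt1*, which brings MCM to the origin, gave 1999, 2129 and 2053 normalized counts in empty vector MEFs, 3773, 3760.4 and 3813 in SAM1 MEFs, and 3194, 3198 and 3161 in SAM2 MEFs, with the same order of the groups and no overlap (log2 fold change 0.75, SE 0.0772, adjusted p = 3.32e-05 from limma). *Gmnn*, its inhibitor, gave 971, 1099 and 944 normalized counts in empty vector MEFs, 1811, 1969 and 1690.5 in SAM1 MEFs, and 1442, 1550.3 and 1528 in SAM2 MEFs. The 6 libraries of the lines lay above the empty vector libraries, with line SAM1 above line SAM2 (log2 fold change 0.72, SE 0.1, adjusted p = 0.000234 from limma).

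Within ORC, the 6-subunit complex that marks origins, 2 subunits were higher, 2 lower and 2 not past the threshold, shares near those of all genes (26.8% higher and 27% lower). *Orc2* (chr1:58497840-58544270 of GRCm39) gave 3817, 3733 and 3843 normalized counts in empty vector MEFs, 2402, 2274 and 2405 in SAM1 MEFs, and 2813, 2822 and 2740.0 in SAM2 MEFs. Every library of the lines lay below every empty vector library, and line SAM1 lay lowest (log2 fold change -0.57, SE 0.0764, adjusted p = 0.000197 from limma). *Orc3* (chr4:34567214-34614957 of GRCm39), the direct partner of *Orc2* in the complex, gave 2049, 1944 and 2002 normalized counts in empty vector MEFs, 1524, 1461 and 1505 in SAM1 MEFs, and 1596, 1578 and 1547 in SAM2 MEFs. It was lower in all 6 libraries, and the lines did not differ past the threshold (log2 fold change -0.38, SE 0.0413, adjusted p = 4.86e-05 from limma). *Orc6* rose by 0.39 (adjusted p = 0.0287 from limma), but without empty vector replicate 1 its adjusted p from limma was 0.103, and it was also above 0.05 without empty vector replicate 2 or 3 and without SAM1 replicate 1 or 3. Taken by line, *Orc6* was higher by 0.61 in line SAM1 (adjusted p = 4.04e-08 from limma) and by 0.18 in line SAM2 (0.00323). The difference of -0.43 between the lines widens its pooled SE. *Orc1*, whose protein level changes over the cell cycle in mammalian cells, rose from 432 ± 18 in empty vector MEFs to 550.5 ± 23.1 in line SAM1 and 515 ± 10.8 in line SAM2 (mean ± SD, n = 3; log2 fold change 0.30, SE 0.0595, adjusted p = 0.002 from limma). *Orc4* (0.08, 95% interval from -0.02 to 0.17) and *Orc5* (-0.09, 95% interval from -0.21 to 0.02) did not pass the threshold. Per kb of transcript the order in empty vector MEFs ran from *Orc6* (1598) over *Orc2* (1067), *Orc3* (868), *Orc5* (439) and *Orc4* (409) to *Orc1* (129), and the neighbours *Orc5* and *Orc4* overlapped within their spread. Exons on the opposite strand overlap 20.7% of the exonic bases of *Orc2* (*Nif3l1*, pooled log2 fold change -0.60) and 32.9% of those of *Orc3* (*Akirin2*, -0.23). They also overlap 8.45% of those of *Orc6* (*Vps35*, -0.01), where the partner had 28020 normalized counts in empty vector MEFs. The kit kept strand, but the strand setting of the counting is not given in the sources used here, so part of these counts may belong to the partner.

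Promoter sequences were read because 35 of the 49 genes rose together. RefSeq promoter entries of GRCm38.p6, from 250 bases before to 50 bases after the start, were matched by symbol for 41 of the 49 genes, and none was matched for *Gins1*, *Mcm4*, *Pole*, *Rfc2*, *Gins2*, *Prim2*, *Gmnn* and *Gins4*. The E2F word with the letters TTTGGCG was searched on both strands, together with the variant TTTCCCG, the variant TTTCGCG and the variant TTTGCCG. These 4 words were found in 22 of the 41 genes (53.7%), against 7.65% of all 27025 genes with an entry and 12.3% of the 11165 listed genes with an entry. CCAAT, the word of the factor NF-Y, was found on either strand in 24 (58.5%, against 41.1% of all genes), and the word TTTGAA or its variant TTCGAA, of the cell cycle homology region, in 9 (22%, against 21.7%). Among the 11165 listed genes with an entry, 43.1% had CCAAT and 16.6% a word of the cell cycle homology region. The E2F words were in 18 of 30 genes that rose, in 3 of 8 that did not pass the threshold and in 1 of 3 that fell. By role they were in 4 of 5 MCM genes, 5 of 8 loaders, 2 of 5 firing factors, 10 of 17 fork genes and none of the 5 nucleotide supply genes. A match of letters is a description and not a bound site, and the tests of expression above do not use it.

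The stretches shown are those that lie before the start in genes on which the results turn: *Mcm5*, *Cdc6*, *Orc1* and *Gins3*, which rose, *Mcm6*, which did not pass the threshold, and *Orc3*, which fell. Each is written in the direction of its gene with GRCm38.p6 coordinates, and the capitals mark the E2F words, which overlap each other on opposite strands in *Mcm5* and *Mcm6*.
Mcm5 chr8:75109330-75109388 plus strand: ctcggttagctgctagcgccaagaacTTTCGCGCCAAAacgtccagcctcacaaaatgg
Cdc6 chr11:98907988-98908046 plus strand: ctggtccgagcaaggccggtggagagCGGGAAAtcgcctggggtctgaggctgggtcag
Orc1 chr4:108579402-108579453 plus strand: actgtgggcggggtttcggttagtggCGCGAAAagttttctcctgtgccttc
Gins3 chr8:95633493-95633551 plus strand: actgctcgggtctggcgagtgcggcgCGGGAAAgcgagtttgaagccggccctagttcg
Mcm6 chr1:128359783-128359841 minus strand: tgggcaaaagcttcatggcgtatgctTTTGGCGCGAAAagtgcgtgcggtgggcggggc
Orc3 chr4:34614951-34615009 minus strand: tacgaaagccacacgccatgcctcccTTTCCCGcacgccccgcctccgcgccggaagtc
*Rrm2* and *Mcm10*, which rose most, had no E2F word of these 4 before the start. *Mcm10* had such a word after the start, at base 43, and was counted above as a gene with an E2F word. A stretch of each is shown with a CCAAT word in capitals.
Rrm2 chr12:24708178-24708234 plus strand: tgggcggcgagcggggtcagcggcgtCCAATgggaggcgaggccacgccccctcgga
Mcm10 chr2:5012792-5012840 minus strand: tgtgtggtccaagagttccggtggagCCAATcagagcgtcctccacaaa
Similar words stood before genes that did and did not pass the threshold. *Mcm5*, with a pair of overlapping words, rose by 0.94, and *Mcm6*, with such a pair and another word nearer the start, differed by 0.12 without passing the threshold.

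Of the 8 firing genes, which turn a loaded helicase into a fork, 6 rose and none fell, with a median of 0.61. *Mcm10*, which helps to start unwinding, gave 713, 755 and 738 normalized counts in empty vector MEFs, 2001, 2094 and 2144 in SAM1 MEFs, and 1679, 1637 and 1598 in SAM2 MEFs. No library of the lines came near the empty vector libraries, and line SAM1 lay above line SAM2 (log2 fold change 1.33, SE 0.105, adjusted p = 6.48e-06 from limma). *Gins1*, a GINS subunit, gave 264, 316 and 296 normalized counts in empty vector MEFs, 769, 684 and 678 in SAM1 MEFs, and 529, 553 and 547 in SAM2 MEFs, with the same order (log2 fold change 1.09, SE 0.13, adjusted p = 8.94e-05 from limma). *Cdc45*, the helicase partner of MCM and GINS, gave 1101, 1065 and 1071 normalized counts in empty vector MEFs, 2096, 2089 and 2079 in SAM1 MEFs, and 1741, 1790.5 and 1734 in SAM2 MEFs. The 3 groups were again apart, line SAM1 highest (log2 fold change 0.83, SE 0.0784, adjusted p = 1.98e-05 from limma). *Gins3* gave 514, 477 and 561 normalized counts in empty vector MEFs, 1040.3, 953 and 988 in SAM1 MEFs, and 721, 767 and 753 in SAM2 MEFs, in the same order (log2 fold change 0.74, SE 0.131, adjusted p = 0.00107 from limma). The GINS complex has 4 subunits, and they differed in size of change. *Gins1* rose by 1.09, *Gins3* by 0.74 and *Gins2* by 0.22, while *Gins4* differed by 0.11 (95% interval from -0.02 to 0.24) without passing the threshold. *Gins2* shares 67.3% of its exonic bases with *Gse1* on the opposite strand, which itself rose by 0.60, and its call was lost without empty vector replicate 1 (adjusted p = 0.0733 from limma) or 3 (0.0837) and with quantile normalization (0.0599). *Dbf4*, the regulatory subunit of the firing kinase, rose by 0.49 (adjusted p = 9.64e-06 from limma). Its catalytic partner *Cdc7* did not pass the threshold (0.18, 95% interval from -0.02 to 0.37).

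At the fork, 14 of 20 genes rose, *Rfc5* fell and 5 did not pass the threshold, with a median of 0.35. *Pole2*, the second subunit of the leading strand polymerase epsilon, gave 397, 387 and 377 normalized counts in empty vector MEFs, 646, 690.3 and 642 in SAM1 MEFs, and 615, 682 and 674 in SAM2 MEFs. The lines overlapped each other and lay above empty vector MEFs (log2 fold change 0.76, SE 0.055, adjusted p = 3.51e-06 from limma). *Pole*, its catalytic subunit, gave 1426, 1315 and 1296 normalized counts in empty vector MEFs, 2262, 1992 and 2336 in SAM1 MEFs, and 2327, 2197 and 2296 in SAM2 MEFs, with the same picture (log2 fold change 0.73, SE 0.0593, adjusted p = 7.41e-06 from limma). *Lig1*, the ligase that seals Okazaki fragments, gave 2165, 2273 and 2102 normalized counts in empty vector MEFs, 3485, 3711 and 3483 in SAM1 MEFs, and 3299, 3249.9 and 3191 in SAM2 MEFs. All 6 libraries lay above the empty vector libraries, line SAM1 above line SAM2 (log2 fold change 0.64, SE 0.0539, adjusted p = 9.21e-06 from limma). *Pcna*, the sliding clamp that tethers polymerases and their partners to DNA, gave 4743, 4943 and 4826 normalized counts in empty vector MEFs, 8198, 8549.7 and 8189.6 in SAM1 MEFs, and 6831, 6913 and 6674 in SAM2 MEFs, with the groups in the same order (log2 fold change 0.64, SE 0.0875, adjusted p = 0.00022 from limma). The pseudogenes *Pcna*-ps1 and *Pcna*-ps2, and *Tyms*-ps for *Tyms*, may share reads with these genes.

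Subunits of the same fork complex differed in whether they passed the test. In polymerase alpha and primase, which lay down primers, *Pola1* (0.26), *Pola2* (0.50) and *Prim1* (0.57) rose, while *Prim2* did not pass the threshold (-0.07, 95% interval from -0.17 to 0.03). In polymerase delta, which copies the lagging strand, the catalytic subunit *Pold1* rose by 0.31, while *Pold2* (-0.09, 95% interval from -0.22 to 0.04) and *Pold3* (-0.04, 95% interval from -0.22 to 0.14) did not pass it. All 3 subunits of RPA, which coats single-stranded DNA, rose, by 0.45 (*Rpa1*), 0.59 (*Rpa2*) and 0.32 (*Rpa3*). The *Rpa3* call was lost without empty vector replicate 1 (adjusted p = 0.0870 from limma) or 3 (0.0505). *Fen1*, which trims Okazaki flaps, rose by 0.44 (adjusted p = 0.00194 from limma).

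In the clamp loader RFC, which opens PCNA and places it on DNA, *Rfc4* (0.37, adjusted p = 0.0166 from limma) and *Rfc3* (0.17, adjusted p = 0.0212 from limma) rose, and *Rfc1* (-0.05, 95% interval from -0.14 to 0.05) and *Rfc2* (0.01, 95% interval from -0.11 to 0.13) did not pass the threshold. *Rfc5* gave 1405, 1400.2 and 1436 normalized counts in empty vector MEFs, 1177, 1167 and 1136 in SAM1 MEFs, and 1357, 1320.4 and 1328 in SAM2 MEFs. All 6 libraries of the lines lay below the empty vector libraries, line SAM1 farther than line SAM2 (log2 fold change -0.18, SE 0.0674, adjusted p = 0.0432 from limma). Exons of *Wsb2* on the opposite strand, a gene with 7614 normalized counts in empty vector MEFs and a pooled log2 fold change of -0.07, overlap 41.4% of the exonic bases of *Rfc5*, so that part of the *Rfc5* counts may belong to it. The *Rfc5* call was lost without any of the 3 empty vector libraries (adjusted p from 0.0937 to 0.127 from limma) or any of the 3 SAM1 libraries (0.0699 to 0.0766), and with equal sums (0.407). *Rfc4* lost its call without empty vector replicate 1 (0.0816) and *Rfc3* without empty vector replicate 1 (0.0795) or 2 (0.0731) and with quantile normalization (0.0759). *Eif4a2* on the opposite strand overlaps 16.5% of the exonic bases of *Rfc4*. It had 11052 normalized counts in empty vector MEFs and a pooled log2 fold change of -0.09, so part of the *Rfc4* counts may belong to it.

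Nucleotide supply held the largest rise of the 49 genes. Of its 5 genes 4 rose and none fell, with a median of 0.76. *Rrm2* (chr12:24757811-24764145 of GRCm39), the S-phase small subunit of ribonucleotide reductase, gave 1199, 1164 and 1261 normalized counts in empty vector MEFs, 3915, 3904 and 3884 in SAM1 MEFs, and 2488, 2642 and 2623 in SAM2 MEFs. Line SAM1 lay far above line SAM2, and both lay far above empty vector MEFs (log2 fold change 1.39, SE 0.172, adjusted p = 0.000112 from limma), a 2.63-fold difference. *Tk1*, the cytosolic thymidine kinase of the salvage pathway, gave 1421, 1462 and 1412 normalized counts in empty vector MEFs, 3119, 3357 and 3083 in SAM1 MEFs, and 2838, 2738 and 2748 in SAM2 MEFs, and the 6 libraries of the lines were again clear of the empty vector libraries (log2 fold change 1.05, SE 0.0682, adjusted p = 1.8e-06 from limma). *Dut*, the dUTPase that keeps uracil out of DNA, gave 2047, 2268 and 2159 normalized counts in empty vector MEFs, 3471, 3814 and 3423 in SAM1 MEFs, and 3611, 3799 and 3795 in SAM2 MEFs. The lines overlapped each other, above empty vector MEFs (log2 fold change 0.76, SE 0.0518, adjusted p = 2.55e-06 from limma). *Tyms*, the thymidylate synthase of the de novo pathway, gave 1188, 1244 and 1222 normalized counts in empty vector MEFs, 1854, 1891 and 1829 in SAM1 MEFs, and 1813, 1919 and 1919.7 in SAM2 MEFs, with overlapping lines above empty vector MEFs (log2 fold change 0.62, SE 0.038, adjusted p = 1.29e-06 from limma). *Rrm1*, the large subunit of ribonucleotide reductase, was already abundant, with 11151 ± 156 normalized counts in empty vector MEFs, 11204 ± 107 in line SAM1 and 11761 ± 138 in line SAM2 (mean ± SD, n = 3). It did not pass the threshold (0.04, 95% interval from -0.04 to 0.12, adjusted p = 0.342 from limma).

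Ratios of paired genes within a library do not depend on how libraries are scaled, and 6 such ratios were compared between the 6 libraries of the lines and the 3 empty vector libraries by a two-sided exact permutation test over the 84 splits, whose smallest p is 0.0119. The ratio of *Rrm2* to *Rrm1*, the subunits of the reductase, was 0.109, 0.104 and 0.112 in empty vector MEFs, 0.347, 0.347 and 0.351 in SAM1 MEFs, and 0.214, 0.224 and 0.221 in SAM2 MEFs. It was higher in all 6 libraries, by 1.35 on the log2 scale (exact permutation p = 0.0119, adjusted over the 6 ratios to 0.0238). *Rrm2b*, the p53-induced small subunit that serves outside S phase, gave 1325, 1230.0 and 1347 normalized counts in empty vector MEFs, 1309.8, 1141 and 1299.8 in SAM1 MEFs, and 1867, 1842 and 1882 in SAM2 MEFs. Its ratio to *Rrm2* was 1.10, 1.06 and 1.07 in empty vector MEFs, 0.335, 0.292 and 0.335 in SAM1 MEFs, and 0.750, 0.698 and 0.717 in SAM2 MEFs, lowest in line SAM1, and fell by 1.16 on the log2 scale (exact permutation p = 0.0238, adjusted over the 6 ratios to 0.0286).

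The balance of thymidine salvage to synthesis, *Tk1* to *Tyms*, was 1.20, 1.18 and 1.16 in empty vector MEFs, 1.68, 1.78 and 1.69 in SAM1 MEFs, and 1.57, 1.43 and 1.43 in SAM2 MEFs. It was higher in all 6 libraries, by 0.43 (exact permutation p = 0.0119, adjusted over the 6 ratios to 0.0238). The ratio of the leading to the lagging strand polymerase, *Pole* to *Pold1*, was 0.890, 0.794 and 0.819 in empty vector MEFs, 1.05, 0.920 and 1.09 in SAM1 MEFs, and 1.30, 1.17 and 1.20 in SAM2 MEFs, higher in all 6 libraries by 0.42 (exact permutation p = 0.0119, adjusted over the 6 ratios to 0.0238). That of *Dbf4* to *Cdc7*, activator to kinase, was 6.98, 6.47 and 6.49 in empty vector MEFs, 9.15, 9.72 and 8.29 in SAM1 MEFs, and 7.44, 7.52 and 7.69 in SAM2 MEFs, higher in all 6 libraries by 0.31 (exact permutation p = 0.0238, adjusted over the 6 ratios to 0.0286). *Gmnn* to *Cdt1*, the inhibitor to its target, was 0.486, 0.516 and 0.460 in empty vector MEFs, 0.480, 0.524 and 0.444 in SAM1 MEFs, and 0.452, 0.485 and 0.484 in SAM2 MEFs. The groups overlapped, with a difference of -0.029 (exact permutation p = 0.619, adjusted over the 6 ratios to 0.619), so no shift in this ratio was detectable although both genes rose. The other 5 ratios were no longer past 0.05 when any 1 empty vector library was left out (adjusted exact p from 0.0714 to 0.129) or without SAM1 replicate 1 or 3 (0.0536 to 0.0857), and *Rrm2b* to *Rrm2* also without SAM1 replicate 2 (0.0857). All 5 stayed past it without any 1 SAM2 library (0.0357 to 0.0429). A library left out lowers the number of splits and raises the smallest p above 0.0119, most so for an empty vector library. A call lost without an empty vector library therefore need not mean that a ratio hung on that library. Without a SAM1 library the splits are as many as without a SAM2 library, so their number alone does not account for the calls lost there. All 5 ratios kept their direction in each of these settings.

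**Figure D3:**
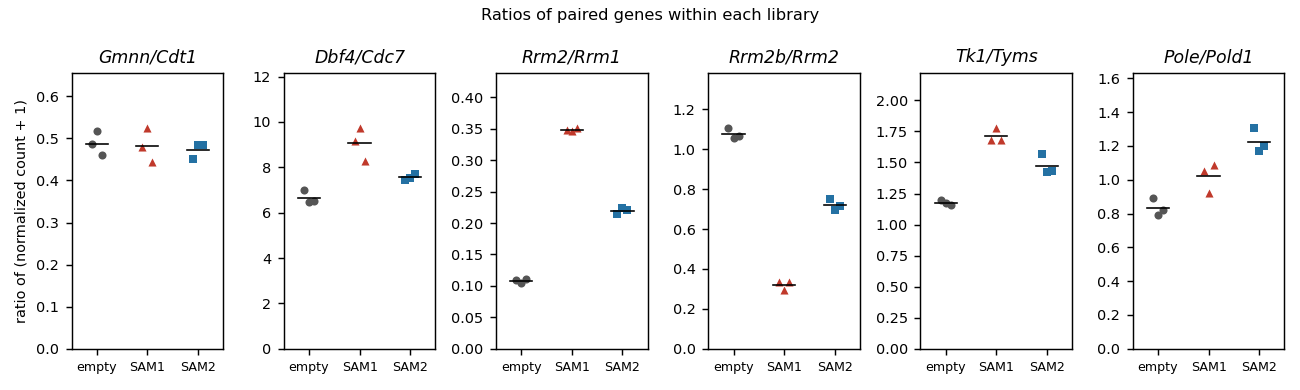
Each panel gives 1 ratio of (normalized count + 1) on a linear axis from 0, with a point for each library and a line at the mean of 3 libraries of empty vector MEFs, line SAM1 and line SAM2. *Rrm2/Rrm1* goes up from 0.109, 0.104 and 0.112 in empty vector MEFs to over 0.2 in every library of the lines, *Rrm2b/Rrm2* goes down in both, and *Gmnn/Cdt1* overlaps across the groups.

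Taken by line, 38 of the 49 genes were higher and 6 lower in line SAM1 than in empty vector MEFs (37.3% and 36.9% of all genes), with a median log2 fold change of 0.52. In line SAM2, 37 were higher and 2 lower (35.2% and 35.3% of all genes), with a median of 0.44. The lines share the empty vector libraries, so their calls are not independent. How many of all genes were called alike in both lines was not counted. Both lines called 35 genes higher and 2, *Orc2* and *Orc3*, lower, and none was called in opposite directions. *Mcm6*, *Orc4* and *Gins4* passed the threshold as higher, and *Orc5*, *Pold3*, *Rfc1* and *Rfc5* as lower, in line SAM1 and not in line SAM2. *Cdc7* and *Rrm1* were called higher in line SAM2 and not in line SAM1. *Prim2*, *Pold2* and *Rfc2* were called in neither. Some of these calls were close to the threshold. That of *Rfc1* in line SAM1 was lost without empty vector replicate 1 or 3, SAM1 replicate 2 or 3, or any SAM2 library (adjusted p from 0.0554 to 0.177 from limma) and with DESeq2 (0.063), and its log2 fold change turned from -0.08 to 0.060 with equal sums and 0.018 with quantile normalization. The calls of *Orc5* and *Pold3* in that line were lost with equal sums (adjusted p = 0.952 and 0.866 from limma). The call of *Rpa3* in line SAM1 was lost without empty vector replicate 1 (0.0848) or SAM1 replicate 2 (0.0900). The call of *Rrm1* in line SAM2 was lost without SAM2 replicate 2 (0.0525) or 3 (0.0601), and in that line *Gins2* and *Rfc3* each lost theirs without SAM2 replicate 1 or 2 or without some empty vector libraries (0.0576 to 0.0936).

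The direct comparison of the lines called 8 of the 49 genes higher and 24 lower in line SAM2 than in line SAM1, where 31.1% and 29.2% of all genes were so called, with a median of -0.10. Of the 35 genes higher in both lines, 22 rose more in line SAM1 and 3 (*Mcm2*, *Pola2* and *Rpa3*) more in line SAM2. The calls of *Pola2* and *Rpa3* between the lines were lost with equal sums (adjusted p = 0.176 and 0.0527 from limma) and with quantile normalization (0.332 and 0.0509), and each without several single libraries (0.0587 to 0.125). The largest differences were those of *Rrm2*, which rose by 1.69 in line SAM1 and 1.10 in line SAM2 (difference -0.59, 95% interval from -0.68 to -0.51, adjusted p = 2.45e-08 from limma), and *Cdc6*, which rose by 1.11 and 0.56 (difference -0.55, 95% interval from -0.66 to -0.44, adjusted p = 8.37e-07 from limma). *Orc6* (-0.43), *Gins3* (-0.41), *Mcm5* (-0.40), *Mcm4* (-0.39) and *Rpa2* (-0.39) followed. Other genes did not differ past the threshold. The difference between the lines was -0.01 for *Pole2* (95% interval from -0.13 to 0.11), 0.02 for *Tyms* (95% interval from -0.06 to 0.10) and -0.03 for *Rpa1* (95% interval from -0.08 to 0.03). The 8 genes higher in line SAM2 were *Mcm2*, *Orc2*, *Cdc7*, *Pola2*, *Pold3*, *Rfc5*, *Rpa3* and *Rrm1*, and without SAM1 replicate 1 only 4 genes were so called, the calls of *Cdc7*, *Pola2*, *Rpa3* and *Rrm1* being lost. The *Rrm1* call was also lost with equal sums (0.310) and quantile normalization (0.582), and without SAM1 replicate 3 or SAM2 replicate 2 or 3 (0.0862 to 0.0991), and the *Cdc7* call without SAM2 replicate 2 (0.0563). Among the 24 lower in line SAM2, *Gins2*, *Prim1* and *Rfc3* lost their calls without several of the libraries of the lines (adjusted p from 0.0505 to 0.17 from limma), and *Orc4* without SAM2 replicate 3 (0.055).

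**Figure D4:**
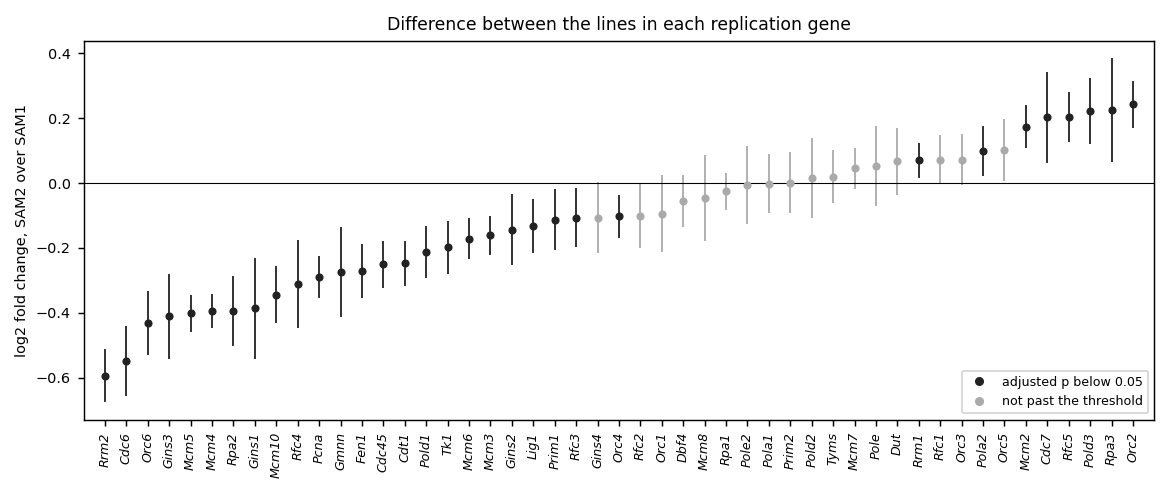
Points give the log2 fold change of line SAM2 over line SAM1 for each of the 49 genes, ordered by size, with 95% intervals from the fit of 3 groups, in black where the adjusted p is below 0.05. *Rrm2* and *Cdc6* lie lowest, and 24 black points lie below 0 and 8 above.

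Other genes of the same pathways were counted from lists. Over all genes, 26.8% were called higher and 27% lower. Of 17 accessory licensing and firing factors 8 rose, 3 fell and 6 did not pass the threshold, with a median of 0.20. *Recql4*, a helicase needed for firing, rose by 1.71, *Clspn*, the fork checkpoint mediator, by 1.26 and *Fbxo5*, which protects geminin and cyclins from degradation, by 1.14. Of 26 accessory fork and chromatin assembly factors 21 rose, 2 fell and 3 did not pass it, with a median of 0.47. *Atad5*, which unloads PCNA, rose by 1.30, *Tonsl*, which binds new histones behind the fork, by 1.18 and *Dscc1*, a subunit of an alternative clamp loader, by 1.14. Of 19 other genes of nucleotide metabolism, 5 rose, 8 fell and 6 did not pass the threshold, with a median of -0.099, where 26.8% of all genes were called higher and 27% lower. *Shmt1*, a folate enzyme, rose by 0.58 and *Samhd1*, which degrades deoxynucleotides, by 0.51, while *Uck2*, a kinase of pyrimidine salvage, fell by 0.56.

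Mitosis genes moved in the same direction as the replication genes and by more. All 16 of them rose, with a median of 1.43, and all 6 libraries of the lines lay above all 3 empty vector libraries in each. Of all genes, 26.8% were called higher and 25.9% had all 6 libraries above all 3. Their normalized counts summed to 25229.8 to 25713 in empty vector MEFs, 67253 to 67879 in line SAM1 and 61719 to 62254 in line SAM2. *Cenpe*, a kinetochore motor, rose by 1.79, *Kif20a*, a motor of cytokinesis, by 1.74 and *Nusap1*, a spindle protein, by 1.74. The difference between the mitosis and the replication genes was not tested.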

How the data were processed

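PolyA+ RNA of MEFs was sequenced in pairs from a strand-directional library. The authors checked reads with FastQC (0.11.0), aligned them to GRCm39 with TopHat2, Bowtie and SAMtools, obtained gene counts with HTSeq, and scaled every library with DESeq2 size factors. What they deposited is thus a signal, normalized counts rather than raw ones, kept for genes above a minimum in part of the libraries. Genes left out there were not analysed here, and 0 columns of values were left unused. Groups came from the titles in the labels.

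On log2(value + 1), limma (3.58.1, empirical Bayes with a trend, R 4.3.3) fitted 6 libraries against 3 and, separately, the 3 groups. P-values were two-sided and Benjamini-Hochberg adjusted over 15184 genes, with a threshold of 0.05. Fold changes on this scale understate the change of low genes. Gene ratios were compared by exact permutation. Multiplied by the size factor, 100% of values in each of the 9 libraries came out whole (within 0.01 of a read), so reads were recovered and tested with edgeR (4.0.16) and DESeq2 (1.42.0) as alternatives. The others were pseudocounts of 0.5 and 10, a filter on a mean of 50, quantile normalization, equal sums, the replicate block and each library left out. The tests were tried on simulated counts. Intervals cover the spread between libraries. In the fit of 6 libraries against 3 this includes the difference between the lines. The SE of *Rrm2* was 0.172 there, against 0.0378 for line SAM1 in the fit of 3 groups.

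The 49 genes and all lists were chosen with earlier results of these data known. Values in every library are given for the genes with the largest change past the threshold in each role (up to 4) and for genes called lower. Outside the 49, the partners of the ratios, *Hnrnpk*, the 3 largest changes past the threshold in each list and genes that overlap a member are named, and others are marked. Gene positions and canonical transcript lengths are from GENCODE vM39 on GRCm39, where 14791 listed names were found once. Promoter sequences are from RefSeq on GRCm38.p6.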

Additional observations from a re-analysis of the deposited data

Results flagged for a closer look

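In 32 of the 49 genes the difference between the lines passed the threshold in the fit of 3 groups (limma, adjusted p below 0.05). Over all 15184 genes, 31.1% were called higher and 29.2% lower in line SAM2 than in line SAM1. For each of the 32 genes the difference is given as the log2 fold change of line SAM2 over line SAM1. Among the helicase subunits it was 0.17 for *Mcm2*, -0.16 for *Mcm3*, -0.39 for *Mcm4*, -0.40 for *Mcm5* and -0.17 for *Mcm6*. Among the loaders and their inhibitor it was 0.24 for *Orc2*, -0.10 for *Orc4*, -0.43 for *Orc6*, -0.55 for *Cdc6*, -0.25 for *Cdt1* and -0.27 for *Gmnn*. The firing genes gave 0.20 for *Cdc7*, -0.25 for *Cdc45*, -0.39 for *Gins1*, -0.14 for *Gins2*, -0.41 for *Gins3* and -0.34 for *Mcm10*. At the fork the polymerase genes gave 0.10 for *Pola2*, -0.11 for *Prim1*, -0.21 for *Pold1* and 0.22 for *Pold3*. The other fork genes gave -0.29 for *Pcna*, -0.11 for *Rfc3*, -0.31 for *Rfc4*, 0.20 for *Rfc5*, -0.39 for *Rpa2*, 0.22 for *Rpa3*, -0.27 for *Fen1* and -0.13 for *Lig1*. Nucleotide supply gave 0.070 for *Rrm1*, -0.59 for *Rrm2* and -0.20 for *Tk1*.

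A single library stood apart from the other 5 labelled Hnrnpk_SAM in 3 genes, by the gap to its neighbour over the whole range. SAM1 replicate 2 was the highest in *Dbf4* (4662 normalized counts) and *Gins4* (3380.2), and SAM2 replicate 3 the lowest in *Rpa1* (7484). Chance marks about 1 in 20 groups in this way where the libraries of a group do not differ by line. These libraries come from the lines SAM1 and SAM2, so that rate need not hold here.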

How the results depend on the processing

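The counts of replication genes called higher or lower stayed within 1.5 times under both pseudocounts, the filter, edgeR, DESeq2 and the replicate block. Scaling changed them more. In line SAM1, 3 genes were lower with equal sums in place of 6, in line SAM2 5 were lower with quantile normalization in place of 2, and 5 were higher in line SAM2 than in line SAM1 with either scaling in place of 8. Leaving out each library in turn, that last count ran from 4 to 9, and the pooled count of higher genes from 30 (without empty vector replicate 1) to 35. For single genes, 3363 values kept direction and side of the threshold, 81 lost their call, 39 gained one and 45 changed sign, 43 of them in genes not past the threshold and 2 in *Rfc1* in line SAM1.

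Values that changed sign were as follows. With equal sums the pooled value was 0.029 for *Orc5*, 0.030 for *Pold2*, 0.082 for *Pold3*, 0.050 for *Prim2* and 0.077 for *Rfc1*, that in line SAM1 was 0.042 for *Pold2*, 0.069 for *Prim2* and 0.060 for *Rfc1*, and that in line SAM2 was 0.060 for *Orc5*, 0.019 for *Pold2*, 0.032 for *Prim2*, 0.094 for *Rfc1*, 0.065 for *Rfc2* and 0.021 for *Rfc5*. With quantile normalization *Rfc1* was at 0.021 pooled, 0.018 in line SAM1 and 0.025 in line SAM2, and *Pold3* at -0.0061 in line SAM2. Between the lines, quantile normalization gave -0.021 for *Mcm7*, -0.029 for *Pold2*, -0.0040 for *Pole*, -0.042 for *Prim2* and -0.027 for *Tyms*, equal sums gave -0.023 for *Pold2*, -0.037 for *Prim2* and -0.019 for *Tyms*, and edgeR with TMM gave -0.0022 for *Prim2*. With a library left out, values ran from -0.020 to 0.046 for *Rfc2* pooled, from -0.0039 to 0.016 for *Rrm1* in line SAM1 and from -0.035 to 0.014 for *Rfc1* in line SAM2. Between the lines they ran from -0.096 to 0.023 for *Mcm8*, -0.046 to 0.030 for *Pola1*, -0.021 to 0.074 for *Pold2*, -0.016 to 0.099 for *Pole*, -0.034 to 0.040 for *Pole2* and -0.015 to 0.024 for *Prim2*.

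The log2 ratios with a library left out ran from 0.27 to 0.35 for *Dbf4* to *Cdc7*, 1.28 to 1.43 for *Rrm2* to *Rrm1*, -1.29 to -1.02 for *Rrm2b* to *Rrm2*, 0.40 to 0.47 for *Tk1* to *Tyms*, 0.38 to 0.48 for *Pole* to *Pold1* and -0.070 to 0.013 for *Gmnn* to *Cdt1*. Without an empty vector library the smallest adjusted p was 0.0714, and no ratio passed. Fewer libraries also leave fewer splits, which raises the smallest p that the test can give.

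Libraries with the same replicate number deviated from their group means with r from 0.00237 to 0.117 (9 pairs, median 0.0344), against -0.122 to 0.0460 for different numbers (18 pairs, median -0.0258). The r of same-numbered pairs were thus small but all above 0. The labels do not say that the numbers pair the libraries, so the main tests left them out, and a shared batch was not tested. With the replicate block, 34 genes were higher and 2 lower in the pooled comparison, with *Orc6* (adjusted p = 0.0622 from limma) and *Rfc5* (0.0863) no longer past the threshold. The ratios kept their values under the block, 0.31 for *Dbf4* to *Cdc7*, 1.35 for *Rrm2* to *Rrm1*, -1.16 for *Rrm2b* to *Rrm2*, 0.43 for *Tk1* to *Tyms* and 0.42 for *Pole* to *Pold1*, but their exact permutation p, adjusted over the 6 ratios, was 0.0741 to 0.0889. The block allows fewer splits as well, so its p cannot go as low as without it.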

Other observations

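Of the 8 genes of E2F factors, which act on replication genes, 4 rose, 3 fell and *E2f3* did not pass the threshold, where 26.8% of all genes were called higher and 27% lower. *E2f8* gave 246, 231 and 248 normalized counts in empty vector MEFs, 725, 699 and 759.8 in SAM1 MEFs, and 489, 452 and 489.9 in SAM2 MEFs (log2 fold change 1.28, SE 0.181, adjusted p = 0.000264 from limma). *E2f2* gave 115, 105 and 105 normalized counts in empty vector MEFs, 229.7, 198 and 200.2 in SAM1 MEFs, and 238, 214 and 237 in SAM2 MEFs (log2 fold change 1.01, SE 0.0916, adjusted p = 1.46e-05 from limma). *E2f7* gave 766, 703 and 645 normalized counts in empty vector MEFs, 1433, 1367 and 1474 in SAM1 MEFs, and 1073, 1056 and 1116 in SAM2 MEFs (log2 fold change 0.82, SE 0.126, adjusted p = 0.000456 from limma). *E2f7* and *E2f8* encode atypical factors known as repressors, *E2f2* an activator. *E2f1*, another activator, named after its values were seen, rose by 0.87 in line SAM1 and 0.21 in line SAM2 (difference -0.66, adjusted p = 6.08e-09 from limma). The 3 that fell, also named after their values were seen, were *E2f4* (-0.21), *E2f5* (-0.30) and *E2f6* (-0.73), which encode factors known mainly as repressors.

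Some replication genes lay among neighbours that moved in the same direction. For each of the 49 genes the median pooled log2 fold change of the other listed genes within 2 Mb on either side was taken, on GRCm39. These medians ran from -0.61 (*Prim2*) to 0.36, with a median of -0.072, and 3 lay above 0.3 and 4 below -0.3. Those above 0.3 were around *Orc4*, *Dut* and *Gins4*, which were themselves at 0.076, 0.76 and 0.11. Those below -0.3 were around *Prim2*, *Orc2*, *Mcm3* and *Orc5*. Around *Orc2* the 42 neighbours had a median of -0.53, and *Orc2* itself -0.57, where all 861 other genes of chromosome 1 had -0.19. Around *Orc3* the 19 neighbours had -0.2996, just short of -0.3, with *Orc3* at -0.38. Around *Orc5* the 36 neighbours had -0.305, with *Orc5* at -0.094. Around *Mcm3* (6 neighbours, -0.41) and *Prim2* (13 neighbours, -0.61), both on chromosome 1, the members were at 0.23 and -0.072. *Rrm2* rose by 1.39 with 16 neighbours at -0.29. No test was made of these medians, and genes so close together are not independent.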
